A study of Mus musculus with 6 samples.

Results

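Messenger RNA levels of 10 genes of the ADAMTS family, Adamts1, Adamts2, Adamts4, Adamts5, Adamts7, Adamts9, Adamts10, Adamts12, Adamts14 and Adamts15, were examined in stromal cells of MO5 melanomas. They were taken by gene name from the 53801 genes of the deposited RNA-seq count table. MO5 is the B16-OVA mouse melanoma line, grown subcutaneously in young adult C57Bl/6 mice. PDPN+PDGFRα+ cells, a population that includes cancer-associated fibroblasts, were sorted after CD45+ and CD31+ cells had been gated out. Ctrl libraries (n = 3) came from non-transgenic, sex-matched littermates and DTR libraries (n = 3) from ADAM12-DTR mice, in which a bacterial artificial chromosome places the diphtheria toxin receptor under Adam12 control. Both groups received diphtheria toxin (DT), so they differed in the transgene and in the loss of ADAM12+ cells that DT causes in its presence. The comparison asks how the PDPN+PDGFRα+ cells of a tumor differ once ADAM12+ cells have been depleted. The labels number the libraries as replicates and do not say that each came from its own mouse. In the paper n counts mice unless stated otherwise, but the legend of this comparison gives no n. The p-values below therefore measure only the spread between these libraries, which may be technical.

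ADAMTS proteins are secreted zinc metalloproteases that carry thrombospondin repeats and, unlike ADAM12 and the other ADAM proteases, have no membrane anchor. They are made with a propeptide that furin-type convertases remove, and the repeats and other domains after the catalytic site hold them in the extracellular matrix. Each branch of the family is known for its own substrates. ADAMTS1, ADAMTS4, ADAMTS5, ADAMTS9 and ADAMTS15 cut versican and related proteoglycans, ADAMTS2 and ADAMTS14 remove the amino-terminal propeptide of fibrillar procollagens, ADAMTS7 and ADAMTS12 cut cartilage oligomeric matrix protein, and ADAMTS10 binds fibrillin microfibrils. Fibroblasts are a main source of several of these enzymes in connective tissue and in tumor stroma.

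Promoter sequence could be shown for 5 of the 10 genes (Adamts1, Adamts2, Adamts9, Adamts12 and Adamts14), from RefSeq on GRCm38.p6. Of these, 3 are printed: that of Adamts1, the most abundant member, that of Adamts2, which had the same 3 highest libraries as Adamts1, and that of Adamts12, which had not. Each run holds the 250 bases before the annotated start, 5′ to 3′ on the strand of the gene, with motif matches in capitals. The motifs searched on both strands were the TATA box TATAAA, the GC box GGGCGG, the AP-1 element TGANTCA and the HIF core ACGTG, and the capitals of the printed runs do not overlap.
Adamts1, chr16:85803114-85803363, minus strand: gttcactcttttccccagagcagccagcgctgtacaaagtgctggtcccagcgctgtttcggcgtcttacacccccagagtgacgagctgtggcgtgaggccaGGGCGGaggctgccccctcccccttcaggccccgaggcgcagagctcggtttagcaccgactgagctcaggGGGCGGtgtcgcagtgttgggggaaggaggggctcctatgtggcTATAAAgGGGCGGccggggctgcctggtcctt
Adamts2, chr11:50601835-50602084, plus strand: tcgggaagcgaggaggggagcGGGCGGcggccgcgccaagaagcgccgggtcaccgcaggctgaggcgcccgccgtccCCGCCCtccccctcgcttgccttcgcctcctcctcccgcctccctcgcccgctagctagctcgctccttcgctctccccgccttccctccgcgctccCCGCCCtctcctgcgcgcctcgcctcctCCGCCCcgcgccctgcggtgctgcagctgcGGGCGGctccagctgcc
Adamts12, chr15:11064523-11064772, plus strand: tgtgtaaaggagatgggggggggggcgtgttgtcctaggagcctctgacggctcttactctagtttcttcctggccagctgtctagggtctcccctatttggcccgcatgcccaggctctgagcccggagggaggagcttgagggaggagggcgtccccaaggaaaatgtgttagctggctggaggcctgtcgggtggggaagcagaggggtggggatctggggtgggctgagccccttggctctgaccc
The Adamts1 promoter held 1 TATA box, starting at position -32 from the start site, and 3 GC boxes. In the Adamts2 promoter there were 5 GC boxes and 0 TATA boxes, and the Adamts12 promoter held 0 matches to any of the 4 motifs. Among 32851 promoters of the same length, 12.4% held a TATA box, 32.7% a GC box, 6.75% an AP-1 element and 16.6% a HIF core. The AP-1 and HIF letters matched 0 times in all 5 promoters, which says only that these letters are not in these windows. GC content was 65.6% for Adamts1, 78% for Adamts2 and 63.2% for Adamts12, against a median of 52.4% over all promoters.

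The 6 libraries held 22339635 to 34271929 counts, at which 3 counts equal 0.0875 to 0.134 CPM (counts scaled to a common library size), a floor that covers counting error only. Correlations of log2 CPM between libraries ran from r = 0.953 to 0.974 between groups and from 0.961 to 0.974 within them. Adam12, whose regulatory sequence drives the toxin receptor, ran from 175 to 216 CPM in Ctrl and from 112 to 165 CPM in DTR (log2 fold change -0.42, adjusted p = 0.602 by edgeR). Its groups did not overlap, as for 8.19% of all genes in that direction. The transcript remained in every DTR library, so these values alone do not establish the depletion. The sort markers were present in every library, Pdgfra at 42.6 to 132 CPM and Pdpn at 46.0 to 99.0 CPM. Pigment cell genes were present too, although the sort selected stromal cells: Dct, a melanin synthesis enzyme, stood at 5744 to 7573 CPM, and the sum of 10 pigment cell markers (16210 to 20320 CPM) was above that of 9 fibroblast markers (5161 to 14100 CPM). The fibroblast sum was 13610, 5228 and 5161 CPM in Ctrl 1, 2 and 3 and 10840, 5567 and 14100 CPM in DTR 1, 2 and 3. It was thus high in Ctrl 1, DTR 1 and DTR 3 and low in the other 3 libraries, a split that crosses the groups. The collagens Col1a1, Col1a2 and Col3a1, which are also ADAMTS substrates in the lists below, made up 92.5% to 96.1% of that sum. The 6 other markers alone summed to 534, 224 and 363 CPM in Ctrl and 512, 300.3 and 1058 CPM in DTR, with the same 3 libraries highest.

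All 10 genes were detected and tested, and they spanned a wide range of abundance. Levels of different genes were compared as CPM per kb of exon, using the union of GENCODE M21 exons, from 4810 bases for Adamts4 to 15048 bases for Adamts9. Adamts1 stood first at 36.8 CPM per kb ± 9.19 (SD, n = 6), 3.45 times the next gene, with no overlap between their ranges. Below it came Adamts2 (10.7 ± 6.02), Adamts5 (8.80 ± 4.69), Adamts4 (8.64 ± 0.810), Adamts12 (5.28 ± 1.03) and Adamts15 (3.50 ± 2.16). The least abundant were Adamts14 (1.66 ± 0.409), Adamts10 (0.947 ± 0.136), Adamts7 (0.454 ± 0.218) and Adamts9 (0.413 ± 0.128). Several neighbours in this order could not be told apart: Adamts5 exceeded Adamts4 in 2 of 6 libraries and Adamts7 exceeded Adamts9 in 3 of 6. Ranges of neighbours were separate between Adamts1 and Adamts2, between Adamts4 and Adamts12 and between Adamts14 and Adamts10. Adamts1 alone made up 41.8% to 51.2% of the summed level of the 10 genes. Of 15121 tested genes with an annotated exon length, 94.1% were less abundant per kb than Adamts1, and 13.8% were less abundant than Adamts9.

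**Figure D1:**
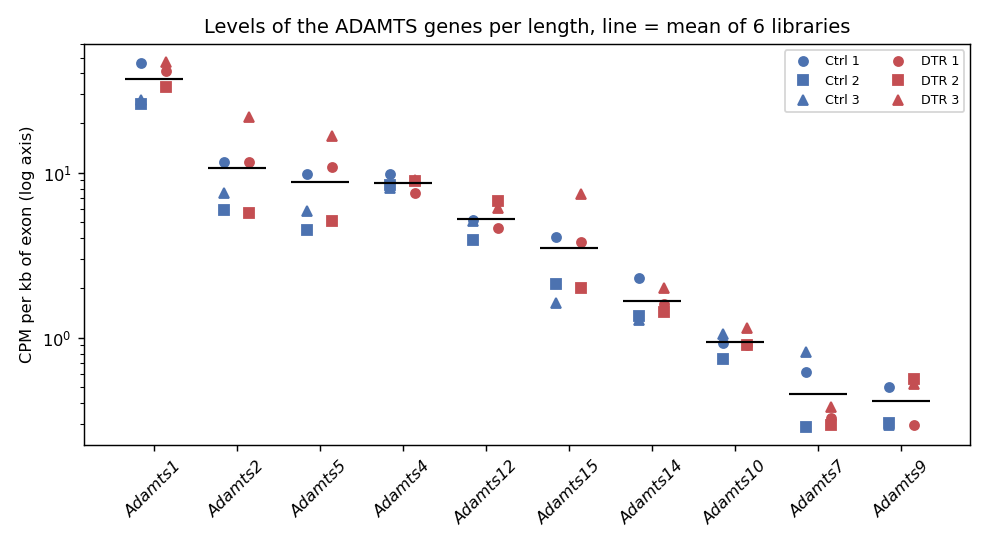
Level of each ADAMTS gene in CPM per kb of exon (log axis), with circles, squares and triangles for replicates 1, 2 and 3 of Ctrl (blue) and DTR (red) and a line at the mean of 6 libraries. Adamts1 stands apart at the top with a mean of 36.8, and the means of Adamts5 and Adamts4 (8.80 and 8.64) are close although the libraries of Adamts5 are spread far more widely.

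Between groups, 8 of the 10 genes had a higher estimate in DTR and 2, Adamts4 and Adamts7, a lower one. The median log2 fold change (DTR minus Ctrl) was 0.30 over the 10 genes and -0.003 over all 15133 genes tested, of which 49.6% were higher in DTR. After Benjamini-Hochberg adjustment over all genes in edgeR, 0 of the 10 had a p under 0.05, as had 0% of all genes. The count of members at an unadjusted p under 0.05 was also 0, against 7.92% of all genes, 3.81% higher and 4.11% lower in DTR. DESeq2 called 0 members too, and 31 genes among 20360, which is 0.152%. No member had every DTR library above or below every Ctrl library, as 14.5% of all genes had (6.3% above and 8.19% below). With 3 libraries against 3, the exact permutation test cannot go below p = 0.1. The summed level of the 10 genes was 90.9, 53.6 and 59.1 CPM per kb in Ctrl 1, 2 and 3 and 82.8, 64.8 and 112 in DTR 1, 2 and 3, with overlapping groups (67.9 ± 20.2 and 86.5 ± 23.8, exact two-sided permutation p = 0.4). In sorted bulk samples, fewer cells of a type and less RNA per cell cannot be told apart, here and for each gene below.

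**Figure D2:**
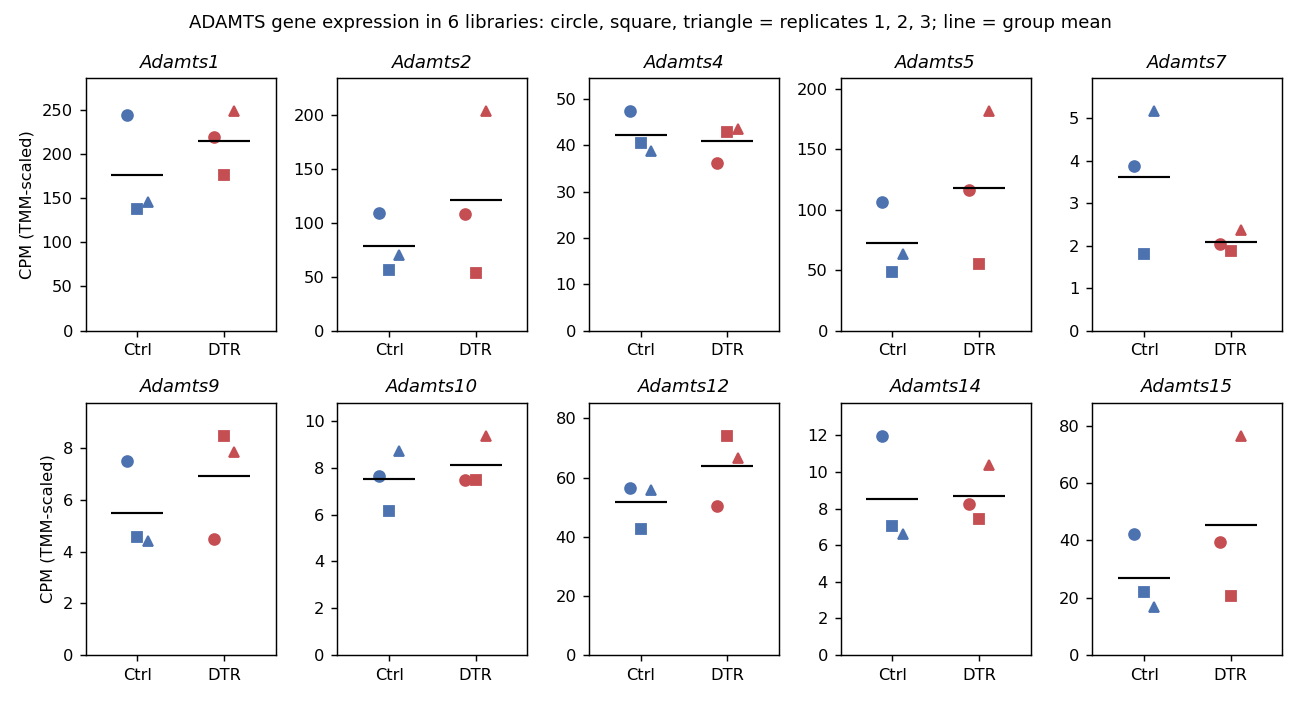
CPM of the 10 ADAMTS genes in each library, with TMM scaling, Ctrl in blue and DTR in red, circles, squares and triangles for replicates 1, 2 and 3 and a line at each group mean. The groups overlap in all 10 panels, and for Adamts2, Adamts5 and Adamts15 the DTR 3 triangle lies far above the other libraries.

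Among the proteoglycan-cutting enzymes, Adamts1 (ENSMUSG00000022893, chr16:85793827-85803113, minus strand, GRCm38 with GENCODE M21) is an early-response gene in several cell types and cuts versican. It stood at 244, 138 and 146 CPM in Ctrl 1, 2 and 3 and at 220, 176 and 248 CPM in DTR 1, 2 and 3. Ctrl 1 lay with DTR 1 and DTR 3 at the top, so the groups overlapped. The group means were 176 ± 59.1 and 215 ± 36.3 CPM (SD, n = 3 each), a log2 fold change of 0.29 (SE 0.228, 95% interval -0.24 to 0.81, adjusted p = 0.752 by edgeR). Without Ctrl 1 the log2 fold change was 0.60, and without Ctrl 2 it was 0.14.

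Adamts5 (ENSMUSG00000022894, chr16:85856173-85901828, minus strand), an aggrecan-cutting enzyme of cartilage that also acts on versican, lies on the same strand as Adamts1, with 53059 bases and 1 annotated gene between them. Its values were 106, 48.3 and 63.1 CPM in Ctrl and 116, 54.9 and 181 CPM in DTR. As for Adamts1, Ctrl 1, DTR 1 and DTR 3 were the 3 highest libraries. The means were 72.5 ± 30.1 and 118 ± 63.2 CPM, a log2 fold change of 0.70 (SE 0.427, 95% interval -0.29 to 1.68, adjusted p = 0.682). DTR 3 carried much of this estimate, which was 0.24 without it and 1.08 without Ctrl 1.

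Adamts4 (ENSMUSG00000006403, chr1:171250421-171260637, plus strand), the other main aggrecan-cutting enzyme, was the steadiest of the 10 genes. It stood at 47.3, 40.5 and 38.8 CPM in Ctrl and at 36.3, 42.8 and 43.6 CPM in DTR, with the highest library only 1.31 times the lowest. Its means of 42.2 ± 4.53 and 40.9 ± 4.02 CPM gave a log2 fold change of -0.05 (SE 0.122, 95% interval -0.33 to 0.24, adjusted p = 0.935). The interval was the narrowest among the 10 genes.

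Adamts15 (ENSMUSG00000033453, chr9:30899155-30922452, minus strand), which also cuts aggrecan and versican, varied most, by 4.55 times between its lowest and highest library. Its levels were 42.1, 22.0 and 16.8 CPM in Ctrl and 39.3, 20.6 and 76.6 CPM in DTR, so Ctrl 1, DTR 1 and DTR 3 again ranked above the rest. The means were 27.0 ± 13.3 and 45.5 ± 28.5 CPM, with the highest log2 fold change of the 10 genes at 0.75 (SE 0.487, 95% interval -0.37 to 1.88, adjusted p = 0.696). Leaving out DTR 3 brought it to 0.15, leaving out DTR 2 to 1.10 and leaving out Ctrl 1 to 1.23.

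Adamts9 (ENSMUSG00000030022, chr6:92772699-92943492, minus strand), a versican-cutting enzyme that is also needed during development, was low. Counts were 184, 109 and 126 in Ctrl and 154, 264 and 178 in DTR, or 7.51, 4.56 and 4.42 CPM against 4.47, 8.49 and 7.84 CPM. Here DTR 2 was highest and DTR 1 was with the lowest Ctrl libraries. The means were 5.50 ± 1.74 and 6.94 ± 2.16 CPM (log2 fold change 0.33, SE 0.325, 95% interval -0.42 to 1.08, adjusted p = 0.794), and the estimate was 0.62 without Ctrl 1 and 0.16 without DTR 2. Exons of Adamts9 share 1381 bases with A730049H05Rik and 424 bases with Gm15737 on the other strand, and the authors' counting used strand.

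Of the procollagen N-proteinases, Adamts2 (ENSMUSG00000036545, chr11:50602084-50807573, plus strand) trims the amino-terminal propeptide of type I, II and III procollagens. It stood at 109, 55.8 and 70.0 CPM in Ctrl and at 108, 52.9 and 203 CPM in DTR. DTR 3 was 3.84 times DTR 2, the lowest library, a wider gap within DTR than between the group means of 78.1 ± 27.3 and 121 ± 75.9 CPM. The log2 fold change was 0.63 (SE 0.446, 95% interval -0.40 to 1.66, adjusted p = 0.718), 0.04 without DTR 3 and 0.99 without DTR 2.

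Adamts14 (ENSMUSG00000059901, chr10:61197112-61273438, minus strand), the related procollagen N-proteinase, was far less abundant. It measured 12.0, 7.03 and 6.64 CPM in Ctrl and 8.28, 7.43 and 10.4 CPM in DTR, with Ctrl 1 highest. Its means were nearly equal at 8.55 ± 2.99 and 8.70 ± 1.53 CPM (log2 fold change 0.02, SE 0.270, 95% interval -0.60 to 0.65, adjusted p = 0.984).

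Of the enzymes that cut cartilage oligomeric matrix protein, Adamts12 (ENSMUSG00000047497, chr15:11064790-11349231, plus strand) has the longest gene of the 10, at 284442 bases. Its values were 56.4, 42.7 and 55.7 CPM in Ctrl and 50.4, 74.2 and 66.7 CPM in DTR. DTR 2 and DTR 3 lay above all Ctrl libraries and DTR 1 did not. The means were 51.6 ± 7.69 and 63.8 ± 12.2 CPM (log2 fold change 0.31, SE 0.169, 95% interval -0.09 to 0.70, adjusted p = 0.662). A per-library offset for genomic span lowered the estimate to 0.08. Leaving out DTR 1 raised it to 0.46, and leaving out DTR 2 lowered it to 0.18.

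Adamts7 (ENSMUSG00000032363, chr9:90163069-90208071, plus strand), the relative of Adamts12, was the member with the lowest log2 fold change. It had 95, 43 and 147 counts in Ctrl and 70, 58 and 54 in DTR, that is 3.88, 1.80 and 5.16 CPM against 2.03, 1.87 and 2.38 CPM. Ctrl 2 was the lowest of the 6 libraries and Ctrl 3 the highest, so the group was spread on both sides of DTR. The means were 3.61 ± 1.70 and 2.09 ± 0.262 CPM, a log2 fold change of -0.79 (SE 0.414, 95% interval -1.75 to 0.16, adjusted p = 0.652). Without Ctrl 3 the estimate was -0.44, and without Ctrl 2 it was -1.11.

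Adamts10 (ENSMUSG00000024299, chr17:33524204-33553782, plus strand), which binds fibrillin and is mutated in a form of Weill-Marchesani syndrome, stood at 7.67, 6.15 and 8.71 CPM in Ctrl and at 7.47, 7.50 and 9.38 CPM in DTR. All values lay within a factor of 1.53, with Ctrl and DTR libraries mixed along the range. Means of 7.51 ± 1.29 and 8.12 ± 1.10 CPM gave a log2 fold change of 0.11 (SE 0.207, 95% interval -0.37 to 0.59, adjusted p = 0.904).

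The 10 genes differed in the order of their libraries. Ctrl 1, DTR 1 and DTR 3 were the 3 highest libraries for 5 of the 10 genes, Adamts1, Adamts2, Adamts5, Adamts14 and Adamts15, whereas 7.35% of all genes tested had that order. These are the libraries in which the sum of fibroblast markers was high. That set of libraries was picked from these same data, so the count is a description and not a test. For Adamts15, Adamts5 and Adamts2 the third library of the order was 1.79, 1.68 and 1.54 times the fourth. Adamts4, Adamts7, Adamts9, Adamts10 and Adamts12 had other orders, with Adamts9 and Adamts12 highest in DTR 2, where the fibroblast sum was low. A fit with the log2 sum of the 9 fibroblast markers, mostly the 3 collagens, as a covariate, chosen after seeing the data, gave log2 fold changes of 0.12 (SE 0.249) for Adamts2, 0.24 (SE 0.191) for Adamts5, 0.26 (SE 0.215) for Adamts15 and 0.13 (SE 0.0945) for Adamts1. In the same fit Adamts7 stood at -0.86 (SE 0.453) and Adamts12 at 0.31 (SE 0.179), and the adjusted p of every member stayed above 0.05. Beyond this covariate, the part of the fibroblast markers in these results was not tested.

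**Figure D3:**
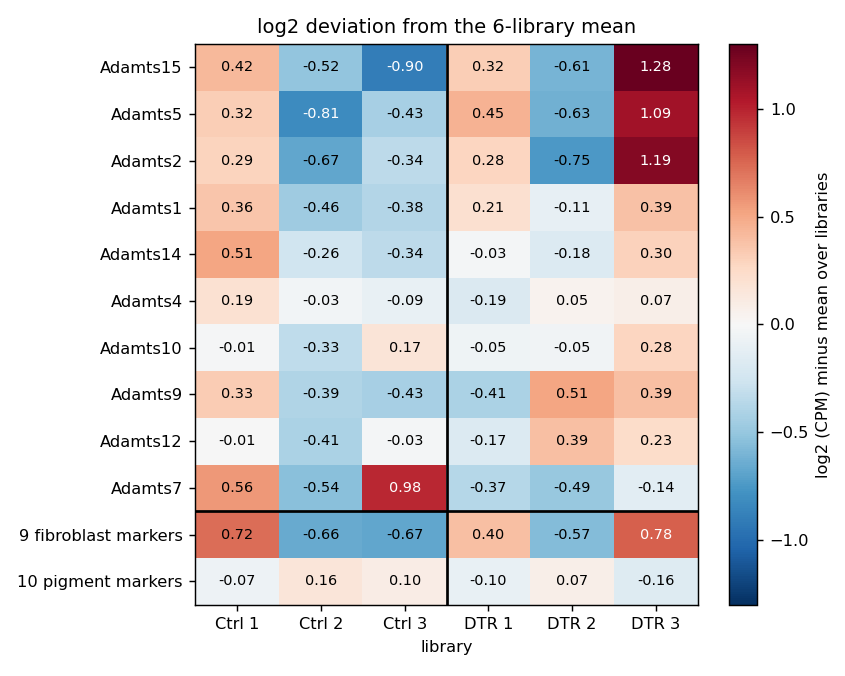
Deviation of log2 CPM from the mean of the 6 libraries for each ADAMTS gene and, under the line, for the summed CPM of 9 fibroblast and 10 pigment cell markers, with red above and blue below the mean. Adamts15, Adamts5 and Adamts2 are red in Ctrl 1, DTR 1 and DTR 3 (up to 1.28 for Adamts15 in DTR 3), as is the fibroblast sum, while Adamts4 stays within 0.19 of its mean.

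Markers of other cell types moved with the libraries to different degrees, and their part in the results was not tested. Of the 9 fibroblast markers, 9 were higher in DTR, with a median log2 fold change of 0.39. Of the 10 pigment cell markers, 8 were lower, with a median of -0.12. Of the endothelial markers, 5 of 8 could be tested, 4 higher and 1 lower in DTR, and Emcn, Cldn5 and Tie1 were too low. Their sum stood at 27.0 to 34.4 CPM in Ctrl and 33.2 to 100.1 CPM in DTR, and was highest in DTR 3, as were Adamts1, Adamts2, Adamts5, Adamts10 and Adamts15. In DTR 3, Tek was at 62.8 CPM, Vwf at 21.3 CPM and Kdr at 12.0 CPM, each its highest library, Pecam1 was at 4.01 CPM, and Cdh5, Emcn, Cldn5 and Tie1 were at 0. Mural cell markers, 7 of 9 tested with Rgs5 and Kcnj8 too low, summed to 71.5 to 161 CPM in Ctrl and 79.5 to 96.7 CPM in DTR, with 6 of the 7 lower in DTR (median log2 fold change -0.39). Macrophage markers, with Itgam at 0, summed to 121 to 204 CPM in Ctrl and 139 to 148 CPM in DTR, with 6 of 9 lower (median -0.28). T cell markers summed to 6.41 to 38.6 CPM in Ctrl and 12.0 to 16.7 CPM in DTR, with 7 of 7 lower (median -0.59). Keratinocyte markers, with Krt1 at 0 and 2 of 6 tested, both higher, summed to at most 7.08 CPM. After adjustment 0 genes of these lists were called by edgeR. An unadjusted p under 0.05 was reached by 2 that were higher in DTR (Tek and Vwf), against 3.81% of all genes. It was also reached by 4 that were lower (Sox10, Mrc1, Cspg4 and Cd3d), against 4.11% of all genes.

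The other 9 ADAMTS genes were mostly scarce, and Adamts18 was too low to test. Of the 8 tested, 6 were higher and 2 lower in DTR, with a median log2 fold change of 0.45 and 0 calls after adjustment. An unadjusted p under 0.05 was reached by 3 of them, in the direction that 3.81% of all genes share, and in each case the adjusted p was above 0.6. Adamts19, whose substrates are poorly known, stood at 1.22, 2.43 and 1.23 CPM in Ctrl and 3.49, 2.86 and 5.77 CPM in DTR. Its log2 fold change was 1.31 (SE 0.424, adjusted p = 0.602 by edgeR). Its groups did not overlap, as for 6.3% of all genes in that direction. Adamts16 had the highest estimate, 2.33 (SE 0.918, adjusted p = 0.604), and its 10.7 CPM in DTR 3 against at most 2.76 CPM elsewhere carried it, since the value was 0.91 without DTR 3. It was 1.16 with the fibroblast covariate, at an unadjusted p above 0.05 in edgeR. For Adamts6 the log2 fold change was 0.50 (SE 0.206, adjusted p = 0.608), and 0.31 with the span offset. Its unadjusted p in edgeR was above 0.05 with that offset and without Ctrl 1, Ctrl 3, DTR 2 or DTR 3. The lowest log2 fold change was that of Adamts17 at -0.05. Adamts20, a versican-cutting enzyme needed by pigment cell precursors, stood at 24.0 to 26.9 CPM in Ctrl and 20.4 to 27.9 CPM in DTR.

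ADAMTS-like proteins share the repeats and lack the protease domain. Of 7 tested, 6 were higher in DTR (median log2 fold change 0.36) and 0 were called. For 2, Thsd4 and Adamtsl3, the unadjusted p was under 0.05 with a higher level in DTR, as for 3.81% of all genes. Thsd4, a fibrillin-binding member, was at 3.43, 4.02 and 4.39 CPM in Ctrl and at 6.42, 10.6 and 7.05 CPM in DTR. Its DTR libraries all lay above its Ctrl libraries, as for 6.3% of all genes. Its log2 fold change was 1.02 (SE 0.260, adjusted p = 0.602 by edgeR), and 1.14 with the fibroblast covariate. Adamtsl3 had a log2 fold change of 1.48 (SE 0.637, adjusted p = 0.629 by edgeR), the highest of the list, which was 0.92 without DTR 3. Its unadjusted p in edgeR was above 0.05 with the fibroblast covariate, with the replicate block and with the span offset. Adamtsl2 was the lowest at -0.43.

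**Figure D4:**
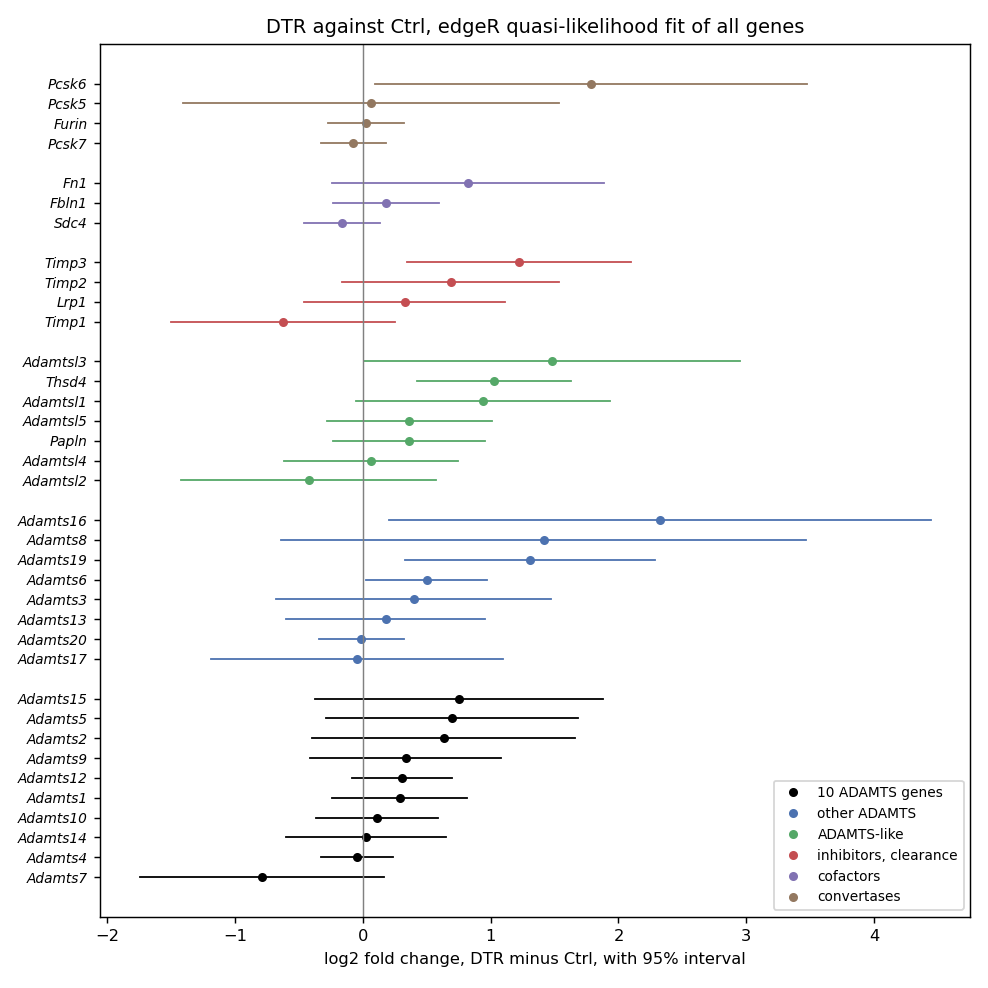
Log2 fold change (DTR minus Ctrl) with its 95% interval from edgeR for the 10 ADAMTS genes (black) and for the tested genes of 5 related lists. The intervals of all 10 black points cross 0, from -0.79 for Adamts7 to 0.75 for Adamts15, and none of the colored genes whose interval lies off 0 had an adjusted p under 0.05.

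Substrates and partners of the 10 enzymes gave 0 adjusted calls as well. Versican (Vcan), the main proteoglycan substrate, was at 202, 102 and 90.2 CPM in Ctrl and at 209, 154 and 239 CPM in DTR (log2 fold change 0.61, SE 0.304, adjusted p = 0.647 by edgeR), with Ctrl 1, DTR 1 and DTR 3 highest. Acan, Bcan and Ncan were too low to test. Of 6 fibrillar procollagen genes, 5 were higher in DTR, from Col2a1 at -0.72 to Col3a1 at 0.46 on the log2 scale. Fibrillin-1 (Fbn1), at 1.07, and thrombospondin-1 (Thbs1), at 0.18, were the highest and lowest of the 3 glycoprotein and fibrillin partners tested, while Comp, the substrate shared by ADAMTS7 and ADAMTS12, was too low to test.

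Among regulators, Timp3, the tissue inhibitor that blocks several ADAMTS enzymes and stays bound to matrix, stood at 64.8, 34.8 and 33.8 CPM in Ctrl and at 85.0, 63.1 and 163 CPM in DTR. The groups overlapped only through DTR 2, which lay just below Ctrl 1. Its log2 fold change was 1.22 (SE 0.381, adjusted p = 0.602 by edgeR), 0.74 without DTR 3 and 0.88 with the fibroblast covariate. Timp1, the lowest of the 4 inhibitor and clearance genes tested, was at -0.62, and Timp4 and A2m were too low to test. Timp3 was the 1 gene of the 4 at an unadjusted p under 0.05, as Pcsk6 was among the 4 convertases that can remove ADAMTS propeptides. Both were higher in DTR, as were 3.81% of all genes at that threshold. Pcsk6 had the highest log2 fold change, 1.79 (SE 0.732, adjusted p = 0.604 by edgeR). It rested on 48.9 CPM in DTR 3 against 4.32 to 12.2 CPM in the other libraries and was 0.46 without DTR 3 and 0.83 with the fibroblast covariate, where its unadjusted p was above 0.05, whereas Pcsk7 was lowest at -0.07 and Furin stood at 0.03. The binding partners that act as cofactors ran from Sdc4 at -0.16 to Fn1 (fibronectin) at 0.83. Pofut2, which adds fucose to thrombospondin repeats, was at -0.18. Its DTR libraries (48.5 to 54.3 CPM) all lay below its Ctrl libraries (56.9 to 59.9 CPM), as for 8.19% of all genes. B3glct, which extends that sugar, was at 0.16.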

How the data were processed

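RNA of PDPN+PDGFRα+ cells from MO5 tumors (3 Ctrl and 3 DTR libraries) was sequenced from strand-specific total RNA libraries. The authors trimmed reads with cutadapt 3.4, aligned them to GRCm38 with STAR 2.7.3a and counted reads per gene with featureCounts 2.0.1 using strand, and the deposited raw counts were used here without change. How reads with several alignments were treated is not given in the sources used here. A deposited score for each library, which is the count after division by a DESeq2 size factor and rounding, and columns of the authors' own comparison (fold changes, p-values, dispersions) were not used.

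Genes with enough counts (edgeR 4.0.16, filterByExpr, minimum count 10, minimum total 15; 15133 of the 26774 with a count) received TMM factors. The groups were compared over all genes with the quasi-likelihood test of edgeR, two-sided, and p-values were adjusted by Benjamini-Hochberg with a threshold of 0.05. Residual degrees of freedom were 4, prior degrees of freedom 3.94 and the common dispersion 0.0662. Per-library CPM values carry the TMM factor. Intervals are 95% intervals of that fit. Exact two-sided permutation tests used log2 values. Gene names came from the table, and loci, exon lengths and spans from GENCODE M21, which matched all 10 genes. Libraries were grouped by their labels, at depths of 22339635 to 34271929 counts.

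Alternatives were DESeq2 size factors or library size alone in edgeR, all genes with at least 1 count or those with at least 10 counts in every library, DESeq2 1.42.0 (Wald test), the replicate number as a block, a loess offset (span 0.5) on log2 genomic span, leaving out each library, and, added after seeing the data, a covariate for the summed fibroblast markers. The steps were tested on simulated data. R 4.3.3, limma 3.58.1, Python 3.11.15, pandas 2.3.3, scipy 1.17.1 and matplotlib 3.10.9 were used.

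The 10 genes and the lists around them were chosen with earlier results of these data known. All 10 are named. From each list of related ADAMTS, substrate and regulator genes, not from the cell type marker lists, the text names the lowest and the highest log2 fold change and every gene at an unadjusted p under 0.05. Adamts20, Furin, Comp, Tek and other genes named beyond this rule were chosen after their values were seen.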

Additional observations from a re-analysis of the deposited data

How the results depend on the processing

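Over 14 alternatives, 131 of the 140 log2 fold changes of the 10 ADAMTS genes kept their direction, 9 reversed and 0 passed an adjusted p of 0.05 (lowest 0.444, without DTR replicate 1). At an unadjusted p under 0.05 the count of members ran from 0 to 3, with 3 without Ctrl 1 (Adamts1, Adamts5 and Adamts15, beside 1324 of 15853 genes) and without DTR 2 (Adamts2, Adamts5 and Adamts15, beside 1191 of 15694). The reversed values were all of members near 0: Adamts4 at 0.04 without Ctrl 1 and 0.047 without DTR 1, Adamts10 at -0.016 without Ctrl 2 and -0.006 without DTR 3 (highest 0.233, without Ctrl 3), and Adamts14 at -0.079 with the span offset, -0.13 with the fibroblast covariate, -0.10 without Ctrl 2, -0.13 without Ctrl 3 and -0.12 without DTR 3 (highest 0.347, without Ctrl 1). Over all genes, 0 calls (1199 at an unadjusted p under 0.05) became 31 with DESeq2, and 0 to 2 when each library was left out, with 2 without Ctrl 1. Members whose groups do not overlap numbered 0 to 2 when each library was left out. They were Adamts1 and Adamts14 without Ctrl 1, Adamts7 without Ctrl 2, Adamts9 and Adamts12 without DTR 1 and Adamts5 without DTR 2, against 23.1% to 28.9% of all genes.

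Deviations of libraries with the same replicate number correlated at 0.114, 0.132 and -0.042. Libraries with different numbers were not compared in this way, so these values cannot decide whether the numbers pair the libraries. The fit with the replicate number as a block called 0 genes (1271 at an unadjusted p under 0.05) and 0 members. Counting error weighs most on Adamts7, with 43 to 147 counts, and Adamts9, with 109 to 264. The other 8 genes had at least 147 counts in every library.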

Other observations

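Levels of paired enzymes within a library, in CPM per kb of exon, are given for 3 pairs that were chosen after their values were seen, so no test is given. Adamts12 exceeded Adamts7 by 8.37, 13.7 and 6.20 times in Ctrl 1, 2 and 3 and by 14.2, 22.9 and 16.1 times in DTR 1, 2 and 3. Adamts7, the denominator, had 43 to 147 counts. The ratio of Adamts5 to Adamts4, the main aggrecan-cutting enzymes, was 1.00, 0.531 and 0.726 in Ctrl and 1.43, 0.572 and 1.86 in DTR. For the procollagen N-proteinases, Adamts2 stood at 5.04, 4.42 and 5.87 times Adamts14 in Ctrl and at 7.24, 3.96 and 10.9 times in DTR. For the last 2 ratios the groups overlapped, and for the first they did not. Among single genes, 14.5% had groups that did not overlap, and the share among such ratios was not computed.

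The genes whose log2 CPM followed Adamts1 most closely over the 6 libraries, of 14880 compared, were Ube2f, a NEDD8-conjugating enzyme (Pearson r = 0.991), Emp1, an epithelial membrane protein (0.990), and Sema4f, a semaphorin (0.989). Each had the same order of libraries as Adamts1. With 6 libraries and so many genes compared, these values describe the libraries and are given without a test.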
